A study of Homo sapiens with 75 samples.

Results

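CIITA and 9 genes of the MHC class II pathway (CD74, HLA-DRA, HLA-DPA1, HLA-DPB1, HLA-DQA1, HLA-DMA, HLA-DMB, HLA-DOA and HLA-DOB) were followed across 75 expression arrays of 5 established mantle cell lymphoma lines. Every probe set that the array annotation pairs with 1 of these symbols alone was taken, which gave 25 probe sets among 41091 with a single symbol, and 10 genes among 19775. A filter on low values, described with the processing, kept 21 of the 25 probe sets and all 10 genes, among 26555 probe sets and 13879 genes. The lines were JEKO-1, HBL-2, GRANTA-519, Z138 and REC-1. Each line received GA101 (obinutuzumab, a glycoengineered antibody against the B cell surface protein CD20), rituximab (an older antibody against CD20), the combination of both, an isotype control antibody, or PBS, with 3 replicate arrays in each of the 25 groups. GA101 and rituximab were used at 10 µg/ml each, also within the combination. The labels state neither how long the cells were treated nor how much isotype antibody was used. Total RNA came from cultures in RPMI1640 with fetal bovine serum, and each group is a single line in culture with no other cell type added. The title of the series asks how antibodies against CD20 differ in the genes they regulate in this lymphoma.

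MHC class II molecules are pairs of an alpha and a beta chain that present peptides from the endosomal pathway to CD4 T cells, and B cells carry them constitutively. Their genes share an upstream module, called the X and Y boxes, which is bound by RFX, CREB and NF-Y proteins; CIITA is a coactivator that does not bind DNA itself but docks on these proteins and is required for transcription of the class II genes. CD74, the invariant chain, escorts new class II molecules and blocks their groove, HLA-DM loads peptide in its place, and HLA-DO inhibits HLA-DM.

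The upstream sequence of the members was searched because class II genes are known for this module. RefSeq windows of 250 bases before the gene start (build GRCh38.p14) were held for 8 of the 10 members. HLA-DRA and CIITA were not matched. The letters searched were AGNNNCNGA, which resembles the first part of the X box, and ATTGG, the core of the Y box, on both strands, and they were chosen with these promoters in view. ATTGG alone occurred in windows of 7 member genes and in 32.0% of all 35116 windows, and AGNNNCNGA alone in 7 member genes and in 46.3% of windows. AGNNNCNGA followed on the same strand by ATTGG after 15 to 35 bases occurred in 4 member genes and in 1.07% of windows. These 4 stretches are given 5′ to 3′ along the gene's strand, with both matches in capitals. The windows of CD74, HLA-DPA1, HLA-DPB1 and HLA-DMB did not hold both matches at this spacing. A match is a description of the letters only.
HLA-DQA1: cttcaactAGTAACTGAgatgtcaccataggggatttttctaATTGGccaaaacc
HLA-DMA: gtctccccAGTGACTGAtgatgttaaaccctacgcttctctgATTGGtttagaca
HLA-DOA: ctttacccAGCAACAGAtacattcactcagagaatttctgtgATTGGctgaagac
HLA-DOB: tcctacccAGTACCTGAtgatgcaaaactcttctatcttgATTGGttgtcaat
The HLA-DQA1 stretch lies on the plus strand at chr6:32637296-32637350. The HLA-DMA, HLA-DOA and HLA-DOB stretches lie on the minus strand at chr6:32953164-32953218, chr6:33009646-33009700 and chr6:32817088-32817140. Between the 2 matches lie 25 bases in HLA-DQA1, HLA-DMA and HLA-DOA and 23 in HLA-DOB, so the spacing is close to constant while the bases between differ.

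Values are probe-set intensities, not log-transformed, and every array has a mean of 171.98 to 172.01. Replicate arrays of a group correlated at r = 0.925 to 0.948 on the log2 scale. Nothing in the labels says that replicates came from separate cultures, so the p-values below measure only how far these arrays scatter, possibly for technical reasons, and the number of arrays limits the precision. Over the arrays of all treatments, the summed intensity of 7 tested B cell markers was 6871 to 14068. It was highest in REC-1 (11785 to 14068). In the isotype and PBS arrays, MS4A1, the gene of CD20, had means between 4286 and 6393 in the 5 lines. Of the mantle cell lymphoma markers, CCND1 had a mean of 1240 in HBL-2 and 5031 to 5975 in the other lines in these arrays. SOX11 means in these arrays were 117 in HBL-2 and 240 to 732 in the other lines. CD5 means there were 8.05 to 17.4 throughout, near the filter level of 11.7. Over all treatments, summed myeloid markers (4 of 11 tested) were 37.0 to 216 and T cell markers (5 of 6) 28.2 to 148. Summed epithelial and fibroblast markers (4 of 5) were 67.4 to 196 over the same arrays. Summed plasma cell markers (5 of 5) were higher, at 2855.5 to 3404.6 in Z138, 2734.5 to 3181.1 in GRANTA-519 and 918 to 1451.7 in the other lines.

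The 5 lines were first compared in the isotype and PBS arms, to describe the class II pathway without an antibody against CD20. All 10 members differed among the lines (limma moderated F test, adjusted p below 0.05), as did 86.8% of all genes tested. The main pattern was REC-1: HLA-DRA, HLA-DPA1, HLA-DPB1, HLA-DQA1 and HLA-DOA were near the bottom of the intensity scale there, HLA-DMA, HLA-DMB, CD74 and HLA-DOB were reduced but present, and CIITA itself was not lowest in REC-1. JEKO-1 was low on all 3 HLA-DQA1 probe sets. Between pairs of lines, the share of all genes that passed was 64.5% for GRANTA-519 and Z138, 61.9% for HBL-2 and Z138, 61.6% for JEKO-1 and Z138, 64.1% for HBL-2 and GRANTA-519, 65.7% for JEKO-1 and GRANTA-519, and 60.8% for JEKO-1 and HBL-2. REC-1 differed from Z138, GRANTA-519, HBL-2 and JEKO-1 in 63.9%, 66.7%, 61.5% and 63% of genes. Differences below are log2 differences ± standard error between the 6 control arrays of each line, with p-values adjusted over all genes. In bulk RNA of this kind, fewer expressing cells and less RNA per cell cannot be told apart.

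CIITA (Entrez gene 4261, chr16:10866206-10943021) was measured by probe set 205101_at. Over all 15 arrays of a line its lowest, median and highest intensities were 93.4, 135 and 232 in JEKO-1, 88.0, 112 and 157 in Z138, 65.9, 91.1 and 104 in HBL-2, 31.2, 62.4 and 77.5 in REC-1 and 23.2, 36.6 and 51.5 in GRANTA-519. JEKO-1 was high and GRANTA-519 low, and the ranges of neighbouring lines overlapped. In the control arms JEKO-1 was above Z138 by 0.94 ± 0.17 (adjusted p = 1.4e-06) and HBL-2 above REC-1 by 0.93 ± 0.17 (adjusted p = 2.0e-06). Z138 and HBL-2 did not differ beyond their spread (0.24 ± 0.17, adjusted p = 0.22). REC-1 was above GRANTA-519 by 0.37 ± 0.17 (adjusted p = 0.048), a call that ended when single arrays were left out in 31 of 75 fits, with an adjusted p up to 0.212. The second CIITA probe set past the filter, 210925_at, had means of 18.8 to 25.6 in the 5 lines, close to the filter level. The third, 211884_s_at, had means of 0.73 to 5.60 and did not pass the filter.

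**Figure D1:**
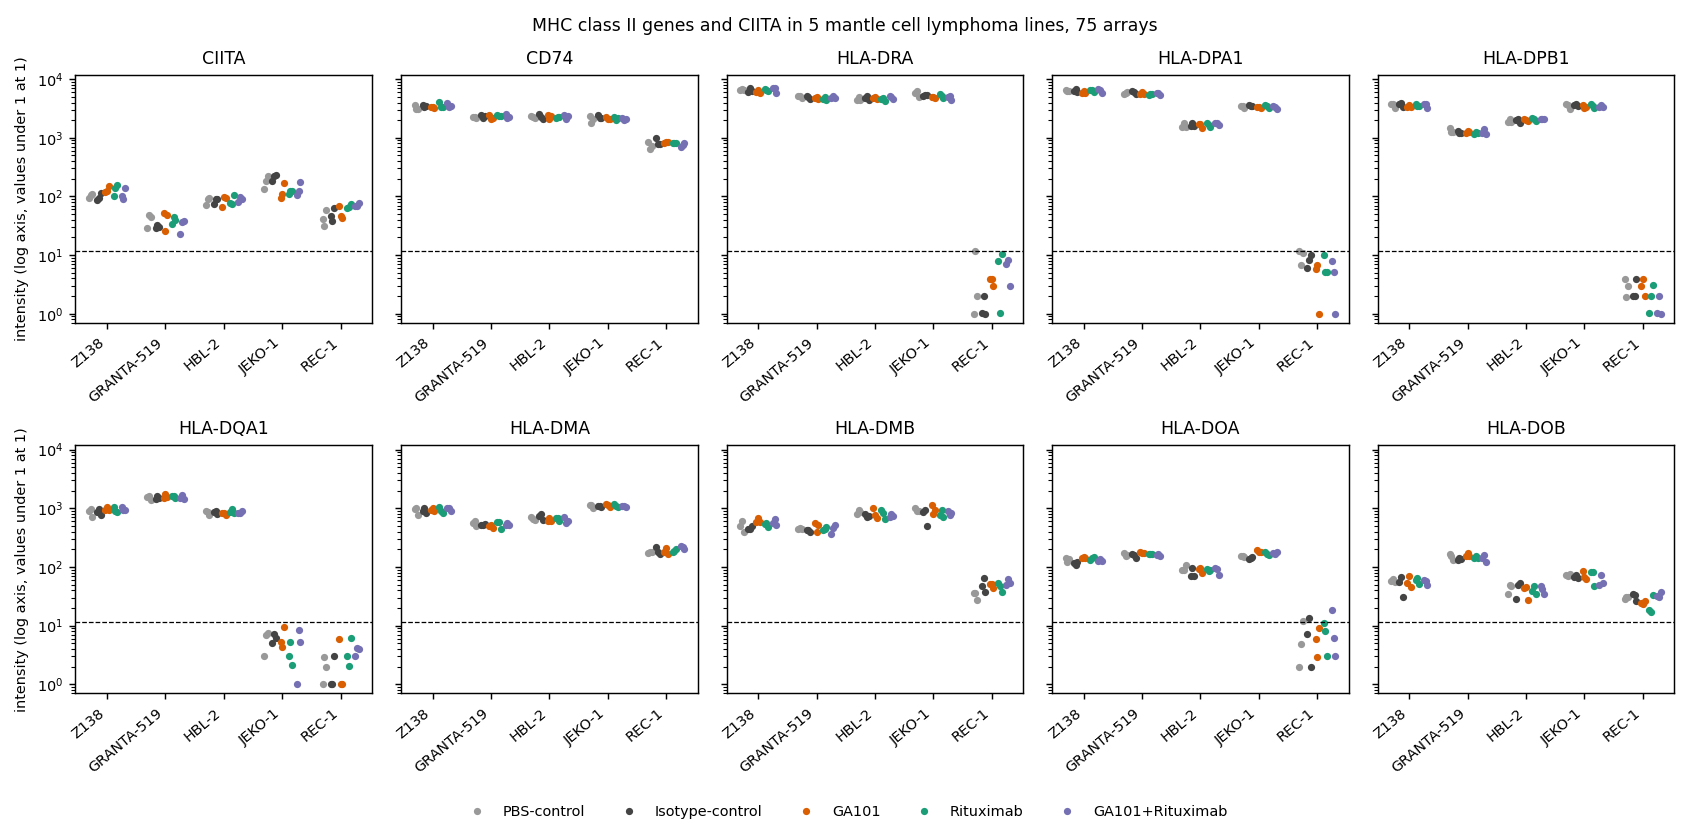
Intensity of the 10 members in the 5 lines (log axis; each dot is 1 array, coloured by treatment, 15 arrays a line; values under 1 are drawn at 1; the dashed line is the filter level of 11.7). HLA-DRA, HLA-DPA1 and HLA-DPB1 do not exceed 11.7 in REC-1 and HLA-DOA not 18.15, whereas CIITA in REC-1 (31.2 to 77.5) overlaps GRANTA-519.

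The chains that present peptide showed the widest range. HLA-DRA, the alpha chain of HLA-DR (chr6:32439887-32445046, probe set 208894_at), had lowest, median and highest intensities of 5777, 6460 and 7061 in Z138, 4332, 5114 and 6247 in JEKO-1, 4454, 4855 and 5257 in GRANTA-519 and 4251, 4718 and 5176 in HBL-2, against 0.96, 2.98 and 11.7 in REC-1. All 15 REC-1 arrays were thus below every array of the other lines, and none exceeded the filter level. The second probe set, 210982_s_at, gave 2758 to 4903 in the other lines and 0 to 1.02 in REC-1. The order of Z138, JEKO-1, GRANTA-519 and HBL-2 did not pass between neighbours (adjusted p = 0.51, 0.73 and 0.78). Differences from values at the bottom of the scale have no exact size, so values under 16 were also set to 16, and a difference from a line that lies wholly under 16 is then a lower bound. With that floor REC-1 minus HBL-2, the nearest line, was -8.18 ± 0.05 (adjusted p = 1.2e-73), and the neighbours among the other lines did differ (adjusted p = 4.8e-06, 0.0091 and 0.037).

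HLA-DPA1 and HLA-DPB1 encode the alpha and beta chains of HLA-DP. HLA-DPA1 (chr6:33064569-33080748, 211990_at) had lowest, median and highest intensities of 5733, 6344 and 6869 in Z138, 5275, 5602 and 6304 in GRANTA-519, 3138, 3426 and 3602 in JEKO-1, 1489, 1664 and 1823 in HBL-2 and 0, 6.82 and 11.6 in REC-1. HLA-DPB1 (chr6:33075990-33089696, 201137_s_at) was at 3165, 3679 and 3938 in Z138, 3144, 3470 and 3795 in JEKO-1, 1759, 2057 and 2186 in HBL-2, 1159.5, 1248 and 1488 in GRANTA-519 and 0, 2.04 and 3.96 in REC-1. The partner chains did not follow the same order: GRANTA-519 stood above JEKO-1 and HBL-2 for HLA-DPA1 and below both for HLA-DPB1. For HLA-DPA1, GRANTA-519 exceeded JEKO-1 by 0.75 ± 0.26 (adjusted p = 0.0095) and JEKO-1 exceeded HBL-2 by 1.09 ± 0.26 (adjusted p = 0.00023). For HLA-DPB1, JEKO-1 exceeded HBL-2 by 0.86 ± 0.16 (adjusted p = 2.4e-06) and HBL-2 exceeded GRANTA-519 by 0.60 ± 0.16 (adjusted p = 0.00061). All REC-1 values of both genes were under 16, and with the floor of 16 REC-1 minus the nearest line was -6.67 ± 0.04 for HLA-DPA1 and -6.33 ± 0.05 for HLA-DPB1 (adjusted p = 1.3e-70 and 7.9e-66).

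HLA-DQA1, the alpha chain of HLA-DQ (chr6:32637406-32655272), differed between its own probe sets. On 213831_at the lowest, median and highest intensities were 1381, 1563 and 1738 in GRANTA-519, 715, 939 and 1072 in Z138, 772, 846 and 988 in HBL-2, 0, 5.25 and 9.61 in JEKO-1 and 0, 2.92 and 6.17 in REC-1. On 203290_at GRANTA-519 and Z138 were again high, with 1488 to 1836 and 855 to 1326, but HBL-2 fell to 4.01 to 28.0, beside 7.20 to 21.3 in JEKO-1 and 0 to 9.09 in REC-1. On 236203_at Z138 was highest (390 to 554), followed by GRANTA-519 (125 to 166) and HBL-2 (22.6 to 49.2), while JEKO-1 (0 to 8.24) and REC-1 (0 to 5.90) overlapped. HBL-2 was thus high on 213831_at and much lower on the other two, and JEKO-1 did not exceed 21.3 on any of the 3. A further probe set, 212671_s_at, which the annotation assigns to both HLA-DQA1 and HLA-DQA2 and which is therefore not among the 25, was high in JEKO-1 (3005 to 3606) and in Z138, GRANTA-519 and HBL-2 (1589.5 to 2559), and low in REC-1 (0 to 13.8). REC-1 was the single line low on all 4 probe sets. The JEKO-1 minus REC-1 difference on 213831_at (1.81 ± 0.32, adjusted p = 1.5e-06) compared values at the bottom of the scale and was 0 with values under 16 set to 16. HLA genes vary in sequence between people and resemble each other, so the level of such a probe set cannot be told apart from how well its probes match the transcripts of a line.

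**Figure D2:**
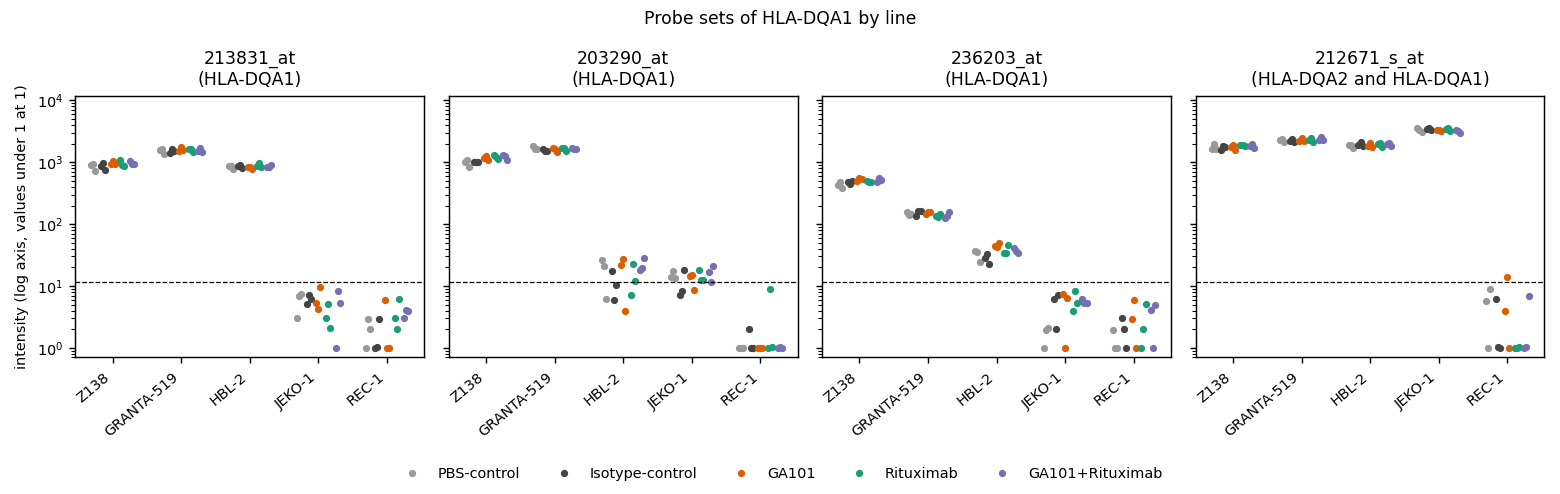
Intensity of 3 HLA-DQA1 probe sets and of 212671_s_at, shared with HLA-DQA2, in the 5 lines (log axis; dots are arrays coloured by treatment, 15 a line; values under 1 are drawn at 1; the dashed line is the filter level of 11.7). JEKO-1 lies at 0 to 21.3 on the first 3 and at 3005 to 3606 on the shared probe set; REC-1 does not exceed 13.8 on any.

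CD74, HLA-DMA, HLA-DMB and HLA-DOB, which act on or after assembly of class II molecules, kept some signal in REC-1. CD74 (chr5:150401639-150412910, 209619_at) had lowest, median and highest intensities of 3126, 3375 and 4019 in Z138, 2128, 2300 and 2553 in GRANTA-519, 2077, 2239 and 2549 in HBL-2, 1771, 2161 and 2462 in JEKO-1 and 655, 822 and 984 in REC-1. Z138 was above and REC-1 below all arrays of the other lines. The gap from JEKO-1 to REC-1 was 1.45 ± 0.06 (adjusted p = 1.8e-29), that from Z138 to GRANTA-519 was 0.57 ± 0.06 (adjusted p = 2.7e-12), and GRANTA-519, HBL-2 and JEKO-1 did not differ between neighbours (adjusted p = 0.99 and 0.31). A second CD74 probe set past the filter, 1567628_at, had means of 18.8 to 27.7 in the 5 lines.

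HLA-DMA and HLA-DMB form HLA-DM, the peptide exchange factor. HLA-DMA (chr6:32948618-32953097, 217478_s_at) was at 1024, 1113 and 1183 (lowest, median, highest) in JEKO-1, 779, 953 and 1037 in Z138, 552, 657 and 789 in HBL-2, 439.56, 524 and 614 in GRANTA-519 and 168, 182 and 225 in REC-1. All 4 steps of this order passed, the smallest being JEKO-1 above Z138 by 0.26 ± 0.07 (adjusted p = 0.0007) and the widest GRANTA-519 above REC-1 by 1.56 ± 0.07 (adjusted p = 1.1e-28). HLA-DMB (chr6:32934636-32941028, 203932_at) was at 506, 884 and 1129 in JEKO-1, 668, 809 and 993 in HBL-2, 391, 550.3 and 694 in Z138, 366, 448 and 569 in GRANTA-519 and 26.9, 47.5 and 65.2 in REC-1. REC-1 was below GRANTA-519 by 3.45 ± 0.12 (adjusted p = 1.2e-33), HBL-2 above Z138 by 0.76 ± 0.12 (adjusted p = 1.3e-07), and the pairs JEKO-1 with HBL-2 and Z138 with GRANTA-519 did not pass (adjusted p = 0.74 and 0.36).

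HLA-DOA and HLA-DOB form HLA-DO, the inhibitor of HLA-DM, which is found mainly in B cells. HLA-DOA (chr6:33004182-33009591, 226878_at) was at 137.9, 168 and 194 in JEKO-1, 143, 165 and 178 in GRANTA-519, 108, 137 and 148 in Z138, 69.8, 89.7 and 107 in HBL-2 and 1.93, 6.12 and 18.15 in REC-1. REC-1 was under 16 on 14 of 15 arrays, and with the floor of 16 REC-1 minus HBL-2 was -2.42 ± 0.06 (adjusted p = 3.5e-40). Without the floor no other neighbours passed (adjusted p = 0.77, 0.50 and 0.11). With it, JEKO-1 minus Z138 (0.25, adjusted p = 0.00036) and HBL-2 minus Z138 (-0.54, adjusted p = 2.2e-11) passed, and JEKO-1 minus GRANTA-519 did not (-0.11, adjusted p = 0.11). HLA-DOB (chr6:32812763-32817002, 205671_s_at) was at 121, 144 and 176 in GRANTA-519, 47.1, 70.8 and 85.0 in JEKO-1, 30.4, 56.8 and 69.9 in Z138, 27.1, 44.3 and 53.4 in HBL-2 and 17.2, 30.2 and 37.8 in REC-1. The HLA-DOB ranges overlapped between all neighbours except GRANTA-519 and JEKO-1, which differed by 1.02 ± 0.16 (adjusted p = 1.2e-07). REC-1 was below HBL-2 by 0.50 ± 0.16 (adjusted p = 0.0058). Of the other probe sets of these genes, 206313_at of HLA-DOA had means of 29.1 to 52.3 in the other lines and 14.97 in REC-1, and 1554984_a_at of HLA-DOB had means of 10.997 to 19.3 in all 5 lines.

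Taking each comparison with adjusted p below 0.05, 9 of the 10 members were lower in REC-1 than in each of the other 4 lines, against 11.3% of all genes tested. The exception was CIITA. With the floor of 16 the count was 8 of 10, against 11.3% of genes, HLA-DQA1 in REC-1 minus JEKO-1 then being 0. Of all member probe sets past the filter, 16 of 21 were lower, against 9.89% of probe sets, and 13 with the floor. Ranked by the floored gap between REC-1 and the nearest other line among 13119 genes, HLA-DRA took rank 1, HLA-DPA1 3, HLA-DPB1 5, HLA-DMB 20, HLA-DOA 49, HLA-DMA 117, CD74 135 and HLA-DOB 821. CIITA in REC-1 minus Z138, GRANTA-519, HBL-2 and JEKO-1 was -1.16, 0.37, -0.93 and -2.11, and the same differences of HLA-DRA with the floor of 16 were -8.67, -8.29, -8.18 and -8.42, each a lower bound in size. GRANTA-519, where CIITA probe set 205101_at was lowest of the 5 lines, had HLA-DRA at a median of 4855. Whether the CIITA level bears on the levels of the class II genes was not tested.

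**Figure D3:**
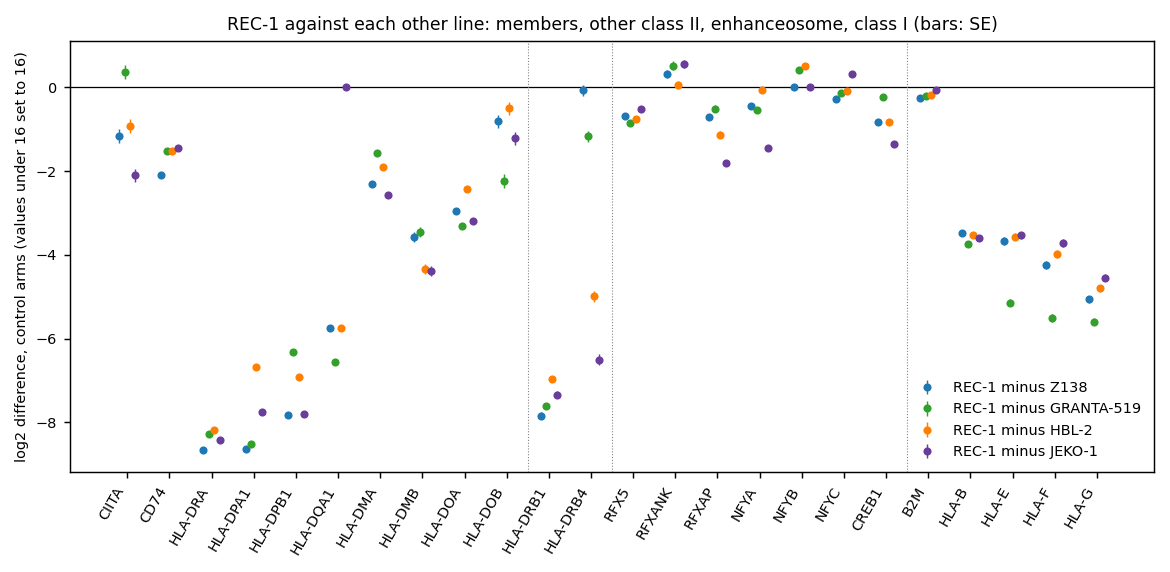
Log2 difference ± standard error of REC-1 minus each other line in the control arms (6 arrays a line), with values under 16 set to 16, for the 10 members, 2 further class II genes, the promoter-binding factors and 5 class I genes, separated by dotted lines. HLA-DRA lies between -8.67 and -8.18, CIITA spans 0, HLA-DQA1 is at 0 against JEKO-1, and HLA-B lies between -3.75 and -3.47 while B2M lies within -0.26 of 0.

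The main beta chains were also low in REC-1, and other class II genes were low in several lines. Of 6 further class II genes tested, 6 were lower in REC-1 than in Z138 and GRANTA-519, and 5 than in HBL-2 and JEKO-1, with none higher, beside the shares of all genes given above. HLA-DRB1, the main beta chain of HLA-DR (208306_x_at), was at 12.9 to 28.2 in REC-1 and at 2337 to 4931 in the other lines. HLA-DQB1, the beta chain of HLA-DQ (211654_x_at), had control means of 25.0 in REC-1 and 176 to 1312 elsewhere. HLA-DRB4, a beta chain gene that only some haplotypes carry (209728_at), was at 1373 to 1587 in JEKO-1 and 445 to 590 in HBL-2, and low in GRANTA-519 (18.1 to 50.1), Z138 (3.90 to 24.5) and REC-1 (0 to 2.04). With the floor of 16 it did not differ between REC-1 and Z138 (-0.07, adjusted p = 0.65). HLA-DQB2 had control means of 18.9 to 32.0 and HLA-DPB2 of 7.28 to 34.0 over the 5 lines, near the filter level throughout. Class II probe sets whose names end in _s_at or _x_at can bind transcripts of related genes, and such paralogs are not fully separated here.

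The factors that bind the X and Y boxes were present in REC-1. RFX5, the large RFX subunit, had a control mean of 560 in REC-1 against 807 to 1010 in the other lines, a difference of -0.52 to -0.85. RFXAP, a second subunit, was at 234 against 331 to 816 (-0.51 to -1.81), and CREB1 at 406 against 476 to 1034 (-0.23 to -1.35). RFXANK, the third RFX subunit, was higher in REC-1 than in Z138, GRANTA-519 and JEKO-1 by 0.32, 0.52 and 0.55 and did not differ from HBL-2 beyond the spread (0.05, adjusted p = 0.68). Of the 7 factors, 5, 5, 3 and 4 were lower in REC-1 than in Z138, GRANTA-519, HBL-2 and JEKO-1, and 1, 2, 1 and 2 were higher, beside the shares of all genes given above. Among regulators of CIITA, the B cell factor PAX5 had its highest mean in REC-1 (3997 against 1168 to 2969, with adjusted p = 0.11 against JEKO-1), and the interferon-induced factor IRF1 its lowest (94.98 against 112 to 252). PRDM1, a repressor of CIITA in plasma cells, was at 44.8 in REC-1, 37.0 in JEKO-1 and 105 to 349 in the others. SPI1 had a control mean of 27.5 in REC-1 against 10.6 to 25.7 in the other lines. IRF4 was at 561 against 326 to 760, and IRF8 at 1077.5 against 134 to 1304.

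Most MHC class I genes were also lower in REC-1. Of 13 tested, 11, 12, 11 and 8 were lower in REC-1 than in Z138, GRANTA-519, HBL-2 and JEKO-1, and 2, 0, 1 and 3 were higher, where 63.9%, 66.7%, 61.5% and 63% of all genes passed in either direction. HLA-G had a control mean of 66.2 in REC-1 against 1516 to 3132 in the other lines, HLA-F of 51.9 against 672 to 2330, HLA-E of 71.8 against 827 to 2518 and HLA-B of 388 against 4288 to 5198. Their probe sets end in _x_at and may bind each other's transcripts. The genes NLRC5 and B2M are named after their values were seen. NLRC5, the class I counterpart of CIITA, was at 26.4 against 136 to 199. B2M, the light chain of class I, was at 6768 against 7033 to 8087, a difference of at most -0.26 that did not pass against JEKO-1 (-0.05, adjusted p = 0.28).

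Over the 25 group means, the genes whose log2 values were most like CIITA were STX2 (Pearson r = 0.950), MAD1L1 (0.948), ACP1 (0.944), RNASEH2B (0.931) and ATL3 (0.931). None of the other members came as close: HLA-DMA had r = 0.65, HLA-DMB 0.47, HLA-DPB1 0.43, CD74 0.37, HLA-DRA 0.35, HLA-DOA 0.31, HLA-DPA1 0.27, HLA-DQA1 -0.21 and HLA-DOB -0.27. These correlations are across 25 points from 5 lines, so groups of a line share its level. After subtraction of each line's mean the closest genes were CORO2A (0.780), MNT (0.739), LOC100507443 (0.699), EML4 (0.690) and HLA-DQA1 (0.682), the last of which is at the bottom of the scale in JEKO-1 and REC-1.

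The antibodies were then compared with the isotype control over all 5 lines, each line weighted equally, to ask whether antibodies against CD20 changed the pathway. Of the 10 members, 1 rose with GA101, HLA-DMB, where 18.2% of all genes tested passed. With rituximab 0 of 10 passed limma at adjusted p below 0.05 (0 at unadjusted p below 0.05), where 20.7% of genes passed, and with the combination 0 of 10 (2 unadjusted), where 17.4% passed. The median log2 difference of the members was 0.0058 with GA101, 0.027 with rituximab and 0.021 with the combination, and that of all genes was 0.024, 0.017 and 0.020. GA101 against rituximab gave 0 members (0 unadjusted; 2.23% of genes), the combination against GA101 0 (1 unadjusted; 1.43%) and against rituximab 0 (0 unadjusted), where 0 of all genes passed. Against PBS 0 members passed for GA101 (1 unadjusted; 10.6% of genes), rituximab (0 unadjusted; 12.1%) and the combination (1 unadjusted; 8.53%). The isotype antibody against PBS gave 0 members (1 unadjusted; 6.46%). That 1 was CD74, at 0.10 (adjusted p = 0.15). The comparisons with isotype share their control arrays.

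**Figure D4:**
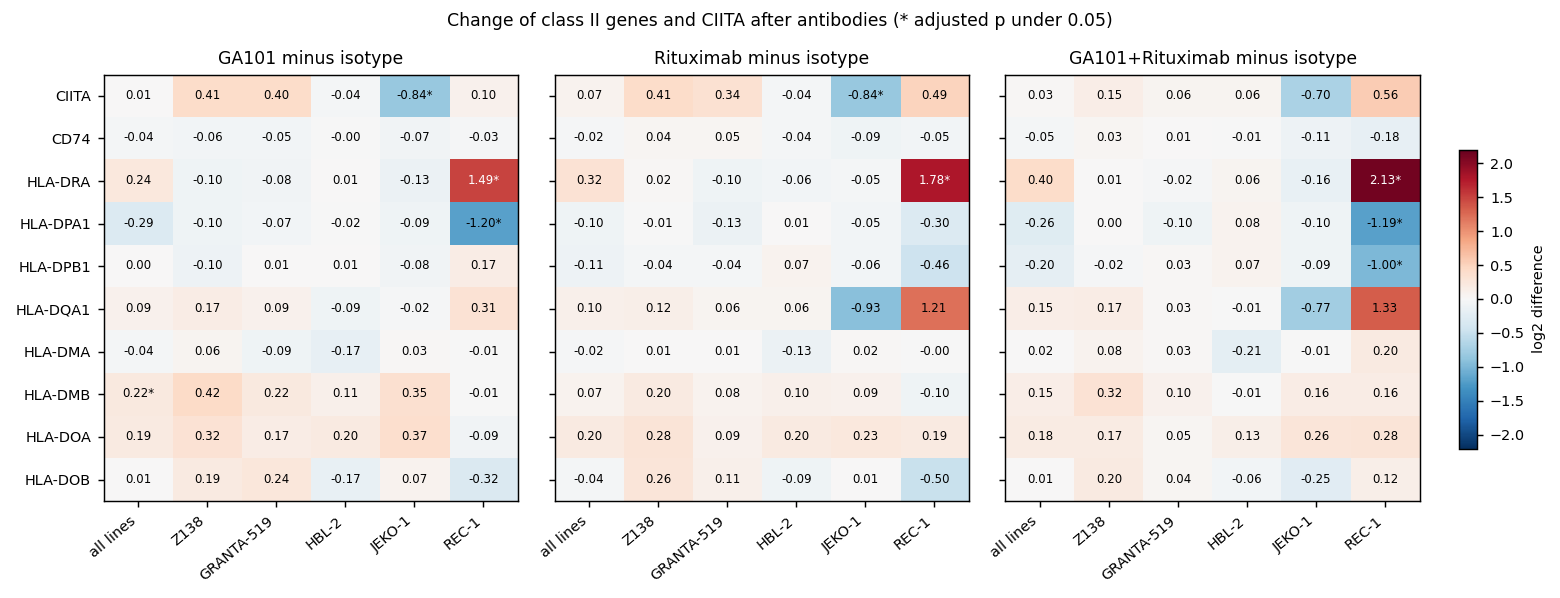
Log2 difference from the isotype control for each member under GA101, rituximab and the combination, over all lines and in each line (colour scale in log2 units; an asterisk marks adjusted p below 0.05). Asterisks fall on HLA-DMB with GA101 over all lines, on CIITA in JEKO-1 and on HLA-DRA, HLA-DPA1 and HLA-DPB1 in REC-1, where those 3 genes are near the bottom of the scale.

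HLA-DMB, a chain of the peptide exchange factor, was at 583, 694 and 595 with GA101 in Z138, against 442, 447 and 506 with isotype and 492, 602 and 391 with PBS. In GRANTA-519 it was at 569, 393 and 516 against 433, 434 and 388 with isotype. The groups did not overlap against isotype in Z138 and overlapped in GRANTA-519. In HBL-2 the values were 993, 777 and 693 against 813, 714 and 735, and in JEKO-1 1129, 795 and 948 against 879, 928 and 506. REC-1 had 51.0, 51.2 and 43.7 with GA101, 47.5, 65.2 and 37.7 with isotype and 35.7, 36.1 and 26.9 with PBS. The difference from isotype was 0.22 ± 0.08 over all lines (adjusted p = 0.034), with a mean above isotype in 4 of 5 lines, and 0.20 (adjusted p = 0.021; 17.8% of genes passed) against both controls together, a comparison chosen after the data were seen. Against PBS it was 0.19 (adjusted p = 0.10), and the call against isotype ended in 12 of the 75 fits that left out 1 array, with an adjusted p up to 0.109. In REC-1 alone HLA-DMB was higher than PBS with GA101 (0.57 ± 0.17, adjusted p = 0.019; 9.54% of genes passed) and with the combination (0.74 ± 0.17, adjusted p = 0.0039; 3.57%), whereas isotype stood 0.58 above PBS without passing (adjusted p = 0.11).

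HLA-DOA, a chain of the HLA-DM inhibitor, depended on how its low REC-1 values were handled. Over 5 lines it differed from isotype by 0.19 ± 0.19 with GA101, 0.20 with rituximab and 0.18 with the combination (adjusted p = 0.56, 0.55 and 0.62). Its REC-1 values were below 16 on 14 of 15 arrays. With values under 16 set to 16 and all 5 lines kept, the differences were 0.21, 0.16 and 0.14. These passed (adjusted p = 2.65e-05, 0.0011 and 0.0074), where 22%, 24.9% and 20.9% of genes did. With that floor isotype minus PBS was -0.13 (adjusted p = 0.029), where 7.66% of genes passed, and no member passed against PBS with any antibody. With the REC-1 arrays left out, a fit chosen after the data were seen, the standard error was smaller and the differences were 0.26 ± 0.05 (adjusted p = 2.2e-05; 18.4% of genes passed), 0.20 ± 0.05 (adjusted p = 0.0009; 20.9%) and 0.15 ± 0.05 (adjusted p = 0.015; 17% of genes). In Z138 the values were 142, 148 and 144 with GA101, 132, 142 and 146 with rituximab, 117, 108 and 121 with isotype and 140.2, 123 and 138.4 with PBS. In JEKO-1 they were 194, 182 and 181 with GA101, 179, 168 and 159 with rituximab, 137.9, 144 and 149 with isotype and 155, 151 and 147 with PBS. In both lines the GA101 arrays lay above the isotype and PBS arrays. In GRANTA-519 the GA101 arrays (178, 171 and 174) lay above the isotype arrays (166, 158 and 143), and in HBL-2 (92.5, 94.7 and 80.3 against 69.8, 96.1 and 69.9) they overlapped. In the same 4 lines, however, isotype was 0.16 below PBS (adjusted p = 0.027; 6.17% of genes), and against PBS the differences were 0.11, 0.04 and 0.00 for GA101, rituximab and the combination (adjusted p = 0.16, 0.67 and 0.98). The second HLA-DOA probe set, 206313_at, was 0.21 ± 0.12 above isotype with GA101 over 5 lines (adjusted p = 0.29).

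CIITA fell in JEKO-1, its highest line, with GA101 and with rituximab. Its values there were 185, 226 and 232 with isotype, 135, 183 and 221 with PBS, 93.4, 109 and 168 with GA101, 109, 126 and 124 with rituximab and 105, 123 and 175 with the combination. All 9 arrays with an antibody against CD20 were below all 3 isotype arrays, and the PBS arrays overlapped those of GA101 and the combination but not those of rituximab. The difference from isotype was -0.84 ± 0.24 with GA101 (adjusted p = 0.016; 7.17% of genes passed) and -0.84 ± 0.24 with rituximab (adjusted p = 0.016; 7.48%), while with the combination it was -0.70 ± 0.24 (adjusted p = 0.065; 6.07%). CIITA was the 1 member called in JEKO-1 with either single antibody in the main fit. Against PBS the differences were -0.56, -0.56 and -0.42 (adjusted p = 0.19, 0.20 and 0.42). Against both controls together, chosen after the data were seen, they were -0.70, -0.70 and -0.56 (adjusted p = 0.020, 0.021 and 0.094, where 8.42%, 7.47% and 6.33% of genes passed).

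**Figure D5:**
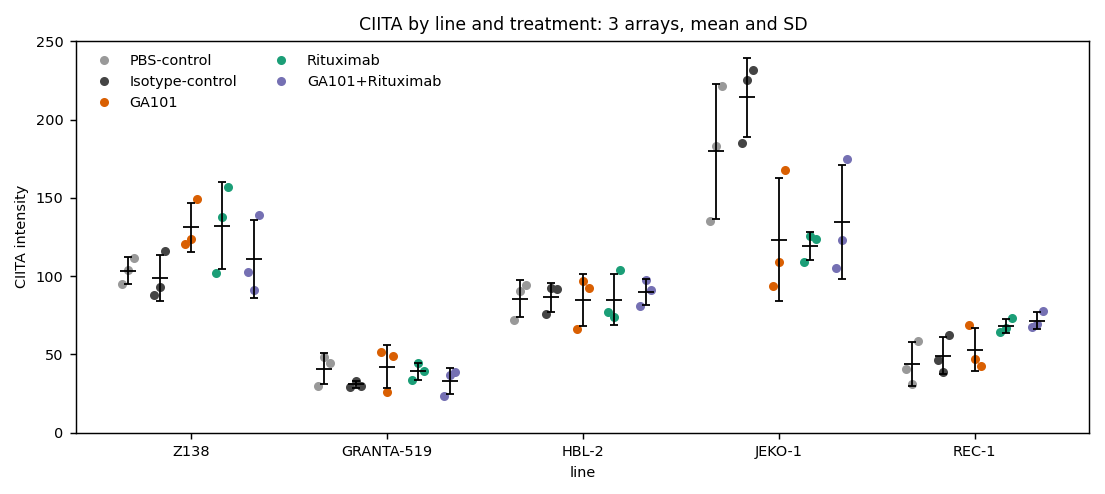
CIITA intensity (probe set 205101_at, linear axis) by treatment in each line; points are arrays and bars the mean ± SD of 3 arrays. In JEKO-1 the isotype arrays lie between 185 and 232 and all 9 arrays with GA101, rituximab or both lie between 93.4 and 175; no such order holds in the other lines.

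CIITA in JEKO-1 rested on few arrays. The GA101 call ended without JEKO-1 GA101 replicate 1 or 2 or JEKO-1 isotype replicate 2 or 3 (-1.08 to -0.66 over all 75 fits that left out 1 array, adjusted p up to 0.152), and the rituximab call without JEKO-1 rituximab replicate 1 or isotype replicate 2 or 3 (-0.94 to -0.77, adjusted p up to 0.0752). With both CIITA probe sets averaged in place of 205101_at neither passed (-0.64, adjusted p = 0.098, and -0.48, adjusted p = 0.28).

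In the other lines CIITA did not pass against isotype. In Z138 it differed by 0.41 with GA101, 0.41 with rituximab and 0.15 with the combination, in GRANTA-519 by 0.40, 0.34 and 0.06, in HBL-2 by -0.04, -0.04 and 0.06, and in REC-1 by 0.10, 0.49 and 0.56. The response of CIITA differed between the lines in the moderated F test with 4 numerator degrees of freedom for GA101 (F = 4.68, adjusted p = 0.0236; 14.1% of genes passed) and rituximab (F = 5.42, adjusted p = 0.0126; 11.5%), and it did not pass for the combination (adjusted p = 0.075; 10.2%). For the combination it did pass with a replicate block (adjusted p = 0.0101), quantile normalization (0.0211) and array weights (0.00588). In the main fit no class II gene passed against isotype in JEKO-1 beside CIITA. With the floor of 16, the members called there with GA101, rituximab and the combination numbered 2, 1 and 1 (9.46%, 9.64% and 8.15% of genes passed). The HLA-DOA arrays with GA101 lay above the isotype arrays in JEKO-1, as given above. In the main fit HLA-DRA stood at -0.13, -0.05 and -0.16 against isotype with GA101, rituximab and the combination (adjusted p = 0.95, 0.99 and 0.94). CD74 stood at -0.07, -0.09 and -0.11 (adjusted p = 0.80, 0.71 and 0.60). The standard error of these HLA-DRA differences was 0.44, and 0.07 with the REC-1 arrays left out, where they did not pass either (adjusted p = 0.34, 0.84 and 0.21). Against isotype in JEKO-1, RFX5 was higher with GA101 (0.27, adjusted p = 0.0037) and the combination (0.24, adjusted p = 0.014). RFXAP was lower there with rituximab (-0.43, adjusted p = 0.0047) and the combination (-0.36, adjusted p = 0.030). Other regulators of CIITA and B cells also passed against isotype in JEKO-1. IRF4 was lower with GA101 (-0.41), and BCL6 was higher with GA101, rituximab and the combination (0.64, 0.64 and 0.70). With rituximab SPIB (-0.33) and IRF8 (-0.24) were lower and MYC (0.21) higher. JEKO-1 differences of these regulators from PBS are not given here.

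In Z138, GRANTA-519 and HBL-2 no member passed limma at adjusted p below 0.05 for any antibody against isotype in the main fit. With the floor of 16, 1 member passed in Z138 with GA101 and 1 with rituximab (11.9% and 14.4% of genes). None passed there with the combination, and none in GRANTA-519 or HBL-2 with any antibody. At unadjusted p below 0.05 in the main fit, GA101 had 1, 0 and 0 members in these lines, rituximab 0, 0 and 0 and the combination 0, 0 and 1. The shares of all genes that passed in the main fit were 10.4%, 12.6% and 10.5% in Z138, 3.05%, 4.2% and 2.27% in GRANTA-519, and 5.71%, 9.78% and 8.44% in HBL-2.

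In REC-1 the calls fell on genes at the bottom of the scale. HLA-DRA was at 1.01, 2.04 and 0.99 with isotype, 0.96, 11.7 and 1.99 with PBS, 3.92, 3.94 and 2.98 with GA101, 8.05, 1.01 and 10.3 with rituximab and 7.06, 8.16 and 2.98 with the combination. It was above isotype by 1.49, 1.78 and 2.13 (adjusted p = 0.015, 0.0060 and 0.00078), and the wide PBS arrays overlapped every antibody arm. HLA-DPA1 was below isotype with GA101 (-1.20, adjusted p = 0.022) and the combination (-1.19, adjusted p = 0.044), and HLA-DPB1 with the combination (-0.995, adjusted p = 0.0022). These made 2, 1 and 3 members called with GA101, rituximab and the combination, where 11.7%, 5.17% and 4.98% of genes passed. No value behind them exceeded 11.7, and with values under 16 set to 16 each of these differences was 0. The fit also holds a single spread per gene for all 25 groups. On the log2 scale these genes scattered more in REC-1 than in the other lines. The p-values here therefore understate the REC-1 scatter. Against PBS, HLA-DPA1 was lower with GA101 (-1.47) and the combination (-1.46), and HLA-DPB1 with the combination (-1.15), on the same low values. HLA-DPB1 was also lower with the combination than with GA101 (-1.16, adjusted p = 0.00059; 2.2% of genes passed). Whether differences at this intensity reflect a change in transcript was not tested.

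Other genes of the pathway passed in both directions over all lines, beside 18.2%, 20.7% and 17.4% of all genes with GA101, rituximab and the combination against isotype. Of the 7 promoter-binding factors, 2 were higher and 2 lower than isotype with GA101, 2 and 2 with rituximab and 1 and 2 with the combination. RFXAP was lower with all 3 (-0.33, -0.40 and -0.35) and also against PBS (-0.19, -0.26 and -0.21, each past the threshold). RFX5 was higher than isotype with all 3 (0.18, 0.15 and 0.15) but did not pass against PBS, and the isotype antibody against PBS was at -0.18 (adjusted p = 1.0e-05). Of 15 tested genes of peptide processing and trafficking, 2, 4 and 3 were higher and 0 lower, shares near those of all genes. LGMN, the endosomal protease legumain, was higher by 0.17, 0.33 and 0.36 as a mean over the lines. A large part of this came from JEKO-1, where LGMN alone was higher by 0.70, 1.21 and 1.24. CTSS, the cathepsin that degrades CD74, was higher than isotype by 0.18 with rituximab and 0.27 with the combination. Against PBS over all lines, LGMN passed with rituximab (0.24) and the combination (0.27) but not with GA101. CTSS passed against PBS with the combination (0.18) and not with rituximab. Of 13 class I genes 1 was higher in each comparison and 0 lower, TAP1 with GA101 (0.19) and rituximab (0.21) and NLRC5 with the combination (0.23). Against PBS TAP1 passed with GA101 (0.18) and rituximab (0.19), and NLRC5 did not pass with the combination. Of 12 interferon response genes 1, 1 and 1 were higher and 1, 1 and 0 lower. The higher one was OAS1, an antiviral enzyme, at 0.38, 0.70 and 0.75 against isotype and 0.30, 0.62 and 0.66 against PBS.

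Costimulatory genes, which B cells use beside class II to activate T cells, gave different counts against isotype and PBS. Against isotype over all lines 7 of 10 were higher with GA101 and 0 lower (18.2% of genes passed). The largest were TNFSF4 (0.36), CD83 (0.35), TNFSF9 (0.34) and CD58 (0.30). The 7 include CD40 (0.21) and ICAM1 (0.24), which in JEKO-1 alone were lower with GA101 (-0.51 and -0.83, both past the threshold). CD83 (0.36) and CD70 (0.35) were higher there. With rituximab 2 were higher, TNFSF9 (0.28) and CD70 (0.25), and 2 lower, CD86 (-0.23) and CD40 (-0.14), where 20.7% of genes passed. With the combination TNFSF9 (0.38) and CD70 (0.25) were higher and 0 lower (17.4%). Isotype itself was below PBS for CD40 (-0.23), CD58 (-0.16) and CD70 (-0.13) and above it for ICOSLG (0.32), all past the threshold (6.46% of genes). Against PBS 5 were higher with GA101 and 0 lower (10.6%), with CD83 at 0.38, TNFSF9 at 0.27, ICAM1 at 0.17 and CD58 at 0.14. Against PBS 2 were higher and 1 lower with rituximab (12.1%). With the combination 3 were higher than PBS and 2 lower (8.53%), the lower ones being CD40 (-0.33) and CD58 (-0.17).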

How the data were processed

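Biotinylated cRNA was hybridized to 75 Affymetrix 3' expression arrays. The deposited values are untransformed probe-set intensity, brought by the authors to 1 mean per array. MAS5 is named in the submitters' processing notes, and its settings are not given there. Of 54675 probe sets, 62 controls and those without a single gene symbol (1801 had several) were left out. The deposited intensities were set to at least 1 and turned into log2 values without further normalization. Probe sets stayed where, in 1 line or more, the average log2 value over 15 arrays exceeded the median of all probe-set means (3.55, intensity 11.7), and each gene was represented by its brightest probe set. limma 3.58.1 in R 4.3.3 fitted 25 group means (50 residual degrees of freedom) with an intensity trend. Tests were two-sided, with Benjamini-Hochberg adjustment across all genes of a comparison and a threshold of 0.05. The fit was tested on simulated data.

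All members were named. Of related gene lists, counts were given over all tested genes with up to 4 genes past the threshold that changed most. Regulators of CIITA were named besides, without a count over their own list. Likeness to CIITA was Pearson's r, with 5 genes named. The members and lists were chosen with earlier results of these data known. Alternatives were a replicate block, quantile normalization, testing without the filter, averaging all probe sets per gene, a floor of 16, array weights, PBS as control, and each array left out; both controls together and REC-1 left out were added after the data were seen. For a comparison within a single line, most fits that left out 1 array dropped an array outside it. Such a fit alters that comparison only through the shared spread. Replicate numbers carried a weak shared structure. Correlations of deviations had a median of 0.027 for same-number arrays and -0.014 for others, and 1 of 150 same-number correlations was over 0.1. In REC-1 these medians were 0.0023 and -0.0008. The mean correlation was highest with the own replicate number for 56 of 75 arrays. The main fit held no replicate term, which the replicate block adds.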

Additional observations from a re-analysis of the deposited data

Results flagged for a closer look

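The CIITA response to GA101 against isotype differed between the 5 lines (limma moderated F test, adjusted p = 0.0236), with JEKO-1 at -0.84 and Z138 and GRANTA-519 at 0.41 and 0.40. Leaving out single arrays raised this adjusted p to at most 0.12, and it missed 0.05 in 4 of 75 fits, those without JEKO-1 GA101 replicate 1 or 2 or JEKO-1 isotype replicate 2 or 3. The CIITA response to rituximab also differed between lines (adjusted p = 0.0126), with JEKO-1 at -0.84 and REC-1 at 0.49, and it passed in all 75 such fits (adjusted p up to 0.047). With both CIITA probe sets averaged these tests gave adjusted p = 0.351 and 0.473. The HLA-DRA response to the combination differed between lines (adjusted p = 0.0227, where 10.2% of genes passed), with REC-1 values of 0.96 to 11.7, and with values under 16 set to 16 the adjusted p was 0.414.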

How the results depend on the processing

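The count of members that differed among lines stayed at 10, and that of members lower in REC-1 than in every other line at 9, over all 75 fits that left out 1 array; with a floor of 16 the latter was 8, HLA-DQA1 being lost. With a replicate block, isotype against PBS gave 1 member (CD74, adjusted p = 0.0244) in place of 0, and the response differed between lines for 5 member tests in place of 3, CIITA and HLA-DPB1 with the combination being added; the block changed no other count of members past 1.5 times. For GA101 against isotype, quantile normalization, array weights and PBS as control each gave 0 members in place of 1. Array weights gave 5 responses that differed between lines and averaging all probe sets per gene gave 1. A floor of 16, and the REC-1 arrays left out (chosen after the data were seen), each gave 2 members for GA101, 1 for rituximab, 1 for the combination and 1 for isotype against PBS. Leaving out 1 array gave 0 to 1 members for GA101, rituximab and the combination against isotype, for isotype against PBS and for the antibody arms against PBS, 0 to 0 for GA101 against rituximab and the combination against single antibodies, and 2 to 6 responses that differed between lines. Of single-gene results under other settings, 114 kept their call, 32 lost it and 3 gained one, and none changed direction. The floor of 16 was a chosen setting, and whether values under it keep a usable order was not tested. REC-1 values of HLA-DRA, HLA-DPA1, HLA-DPB1, HLA-DQA1 and HLA-DOA lie nearly all under 16, which limits every comparison of these genes between treatments there. On such values 2 REC-1 calls held in all 75 fits. They were HLA-DRA for the combination against isotype (adjusted p up to 0.0153) and HLA-DPB1 for the combination against GA101 (adjusted p up to 0.0275). With the floor of 16 neither passed.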
